A study of Mus musculus with 7 samples.

Results

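One of the 2 endocrine clusters that the authors named in the WT pancreas carries a name with 3 cell letters, and it is called here the three-letter endocrine cluster. It was taken from the deposited annotation as it stands and holds 146 of the 10653 WT cells, against 58473 cells in the whole series. The other endocrine cluster, whose name has 1 letter, holds 133 WT cells and serves as the reference together with the remaining 10374 WT cells. The letters themselves are question marks in the deposited metadata, so that the cell types in the name could not be read. The markers given for the cluster are Gcg, Sst, Ppy and Chga, of which the last 3 were measured. Gcg, the glucagon gene, has no row in the tables, and neither have Ins1 and Ins2, the insulin genes, so these 3 genes were not analysed here.

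The transcripts of single pancreatic cells were sequenced from mice aged 2 months, labelled C57BL/6, with 1 library per mouse. The 2 WT mice were of wild-type genotype and received doxycycline at 1 mg/ml in drinking water with 7.5% sucrose for 7 days. The 3 i4F mice were of the i4F-B genotype and drank the same solution. According to the methods they have a C57BL/6J.Ola.Hsd background and are heterozygous for an inducible transgene of the reprogramming factors Oct4, Sox2, Klf4 and c-Myc in the Pparg gene and for the transactivator rtTA in the Rosa26 locus, in a system they describe as ubiquitous. The 2 caerulein mice were of wild-type genotype and received the secretagogue at 100 µg/kg in 7 injections a day on 2 days, with no doxycycline in their labels.

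Pancreatic islets hold several endocrine cell types, each known for a hormone: beta cells make insulin, alpha cells glucagon, delta cells somatostatin (Sst) and PP or gamma cells pancreatic polypeptide (Ppy). Somatostatin restrains the release of the other islet hormones. Ppy and Pyy encode related peptides of the neuropeptide Y family, and Pyy, peptide YY, is also made by endocrine cells of the gut. All islet cells store their hormones in dense-core granules together with granins such as chromogranin A (Chga).

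The genes of these 3 hormones lie on chromosomes 16 (Sst, 23889573 to 23890958) and 11 (Ppy, 102099930 to 102101319, and Pyy, 102106676 to 102107832) of GRCm38, all on the minus strand, by the GENCODE annotation. Ppy and Pyy are neighbours with 5356 bases between them. Stretches upstream of their RefSeq start sites, on the gene's strand, are shown (55 to 26 bases before the start in Sst and 60 to 1 in Ppy and Pyy) because these genes set the cluster apart and because Sst and Ppy divide its cells. Capitals mark TGACGTCA, the cAMP response element, in Sst and TATAAA, the TATA box, in Ppy.
Sst, chr16:23890870-23890899: ccttggcTGACGTCAgagagagagtttaaa
Ppy, chr11:102101320-102101379: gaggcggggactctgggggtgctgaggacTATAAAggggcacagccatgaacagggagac
Pyy, chr11:102107833-102107892: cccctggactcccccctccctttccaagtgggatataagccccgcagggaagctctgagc
Within the 250 bases before each start, searched on both strands, TGACGTCA was found once in Sst, 48 to 41 bases before the start, and TATAAA once in Ppy, 31 to 26 bases before it. Neither was found in the Pyy window. TGACGTCA is in 1.56% and TATAAA in 12.3% of 32536 RefSeq windows of that length, build GRCm38.p6. The GENCODE model of Sst starts further upstream than the RefSeq start and covers the stretch shown.

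The cluster held 56 of 4327 cells in WT 1, or 1.29% (exact 95% binomial interval 0.979 to 1.68%), and 90 of 6326 cells in WT 2, or 1.42% (1.15 to 1.75%). These intervals overlap, and they cover counting error only. The values are UMI counts, that is, numbers of captured mRNA molecules tagged at their 3′ end, and the cluster rests on 359264 UMIs in WT 1 and 476829 in WT 2. Its cells had a median of 5785.5 and 4466.5 UMIs, below the 9853 and 8001 of the one-letter cluster and above the 2499 and 2676 of the other WT cells. No cell of the cluster shares its barcode with a cell of another library. Scrublet, a doublet caller, marked none of its cells, but it marked only 2 of the 4327 cells of WT 1, and 165 of the 6326 of WT 2. Libraries held 15469018 to 64784216 UMIs. The 2 WT mice differed at least 4-fold for 23 of 8972 genes in the cluster, with 19 of them higher in WT 2. Among these, Pcsk1n, an inhibitor of prohormone convertases, stood at 239 and 6170 CPM (UMIs scaled to a total of 1000000) in WT 1 and WT 2, and at 110 and 3012 CPM in the one-letter cluster.

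The cluster was compared first with the one-letter endocrine cluster, to see which islet genes separate them. It carried the somatostatin and pancreatic polypeptide genes at higher levels, and most beta cell genes at lower levels. Because the authors formed both clusters from these same genes, folds are given as a description with no test, computed per mouse after adding 20 CPM. Sst stood at 54066 CPM in WT 1 and 42690 CPM in WT 2, against 3386 and 3076 CPM in the one-letter cluster. Ppy stood at 21939 and 27398 CPM against 562 and 1606 CPM. Pyy stood at 30190 and 32936 CPM against 1227 and 2573 CPM. For each of the 3 hormones both mice were higher in the three-letter cluster, by log2 folds of 3.67 to 5.24. In the other WT cells Sst was at 3.76 and 95 CPM, Ppy at 1.63 and 42.3 CPM and Pyy at 1.44 and 36.7 CPM.

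In all, 26 of 8972 genes (0.29%) were at least 4-fold higher and 36 (0.401%) at least 4-fold lower in both mice. Among the 10 with the largest folds up were Rbp4, the retinol-binding protein, at log2 3.46 and 3.16, and Arg1, the urea cycle enzyme arginase, at 3.09 and 3.06. Gpx3, a secreted glutathione peroxidase, had log2 folds of 3.40 and 2.78. Dbpht2 and Ctxn2 were also in this set. Beta cell genes led the other direction. Ucn3, urocortin 3, a peptide of mature beta cells, had no UMI in WT 1 and 8.39 CPM in WT 2, against 729 and 670 CPM in the one-letter cluster. A count of 0 in WT 1 allows up to 8.35 CPM. Slc2a2, the glucose transporter GLUT2, had log2 folds of -4.87 and -4.42, and G6pc2, an islet glucose-6-phosphatase, -5.35 and -4.46. Mafa, a transcription factor of beta cells, had -3.74 and -3.83, and Prlr, the prolactin receptor, -4.25 and -4.20. Cox6a2, Prss53, Bace2, Ero1lb and Tmem215 were the other 5 of the 10 with the largest folds down.

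**Figure D1:**
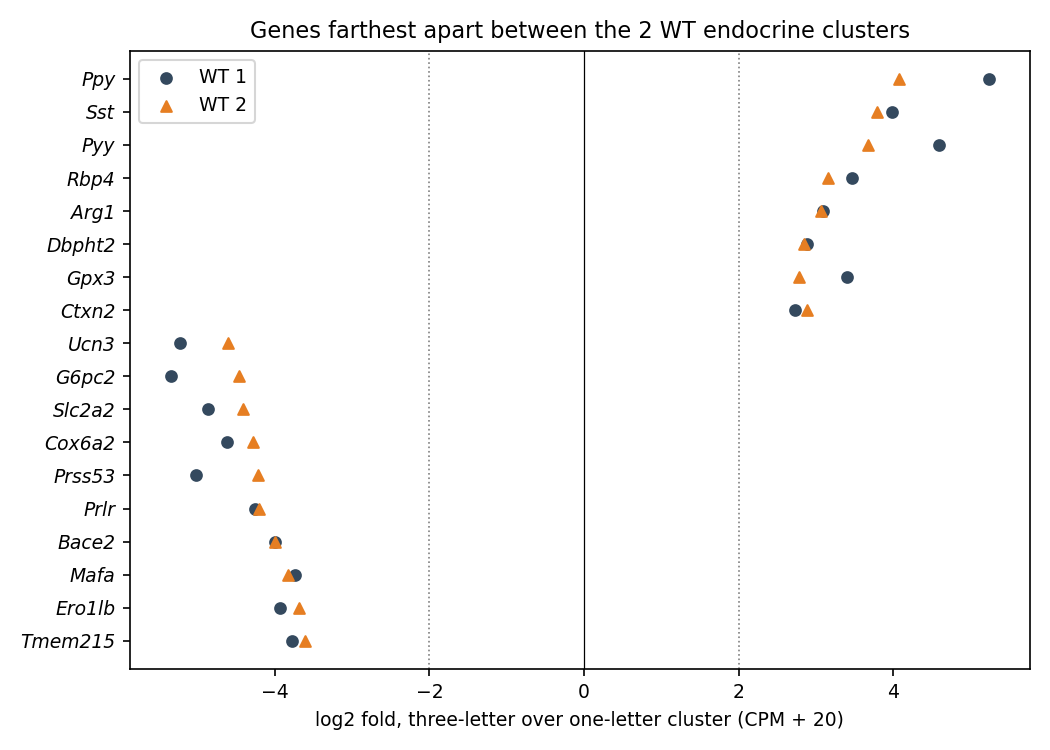
Log2 fold between the three-letter and the one-letter endocrine cluster for genes among the 10 with the largest folds in each direction, on CPM with 20 added; circles are WT 1 and triangles WT 2, and dotted lines mark the 4-fold limit. For the 18 genes drawn both mice lie on the same side, beyond the limit.

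Set out by cell type, 11 of the 14 beta cell genes with at least 20 UMIs were at least 4-fold lower in both mice, against 0.401% of all genes. None was higher. Iapp, amylin, which beta cells release with insulin, was among the lower ones yet still stood at 19874 and 16937 CPM in the cluster, against 180091 and 163665 CPM. Of 13 delta cell genes 5 were higher, namely Sst, Rbp4, Arg1, Cd24a and Etv1, and of 8 PP cell genes 2, Ppy and Pyy, against 0.29% of all genes. Of 15 alpha cell genes 2 were higher, among them Ttr. Ttr, transthyretin, a carrier of thyroid hormone, stood at 20753 and 40174 CPM against 3521 and 3710 CPM. These lists include the genes by which islet clusters are commonly named, so their counts are no independent support for the name.

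Of 16 genes common to endocrine cells 1 was at least 4-fold higher in both mice and none lower, against 0.29% and 0.401% of all genes, and the median log2 fold of the list was 0.30 and 0.32, beside 0.00 and -0.06 over all genes. The higher one was Gnas, the stimulatory G protein subunit, with 2530 and 2592 CPM against 613 and 610 CPM. Below the limit, members went both ways, with log2 folds of 1.18 and 1.14 for Resp18 and of -1.25 and -1.38 for the granin Scg2. Chga, one of the markers, was at 8328 and 9469 CPM against 16371 and 24347 CPM, and at 9.16 and 21.7 CPM in the other WT cells. None of 12 shared endocrine transcription factors passed the limit in either direction. The same held for 16 exocytosis genes, 15 ion channel genes and 13 hormone receptors. Of 15 granule and processing genes 1 was lower, the prohormone convertase gene Pcsk1, and of 10 glucose sensing genes 2, G6pc2 and Slc2a2, beside 0.401% of all genes. Pcsk1, G6pc2 and Slc2a2 are also members of the beta cell list and were counted there already.

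Transcripts of other pancreatic cell types were looked for with marker lists. All 20 acinar genes with a row, of 42 listed, summed to 707 and 640 CPM, against 6611 and 4271 CPM in the other WT cells. In each mouse 5 of them were at 0. Enzyme genes such as Cela1, Ctrb1, Cpa1 and Pnlip have no row, so the sums leave them out. The 13 ductal genes summed to 2589 and 3823 CPM, the 12 stellate and fibroblast genes to 1990 and 659 CPM, the 12 endothelial genes to 398 and 585 CPM and the 12 macrophage genes to 237 and 243 CPM. Most of the macrophage sums came from C1qa alone, at 223 and 214 CPM, while 8 and 5 of the 12 genes were at 0. C1qb, listed with it, had no UMI in either mouse, so these sums do not stand for macrophage genes as a set. Lymphocyte and mesothelial genes stayed under 10 CPM, and erythroid genes had no UMI. The cell with the most held 35.4 to 76.9% of the ductal, stellate or endothelial UMIs of its mouse, but 6.90 to 21.7% of the acinar or macrophage UMIs. In WT 2 a single Sst-dominant cell with 40058 UMIs held 56.4% of the ductal UMIs, and in WT 1 a single cell with 18466 UMIs held 62.7% of the stellate UMIs. In 12 of the 146 cells at least 1% of the UMIs belonged to 1 of the lists for acinar, ductal, stellate, endothelial, macrophage, lymphocyte or mesothelial cells. Without such cells, 33 genes were higher and 36 lower than in the one-letter cluster.

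Next, the cells of the cluster were divided by their own hormone transcripts. A cell was called Sst-dominant or Ppy-dominant if it held at least 10 UMIs of Sst and Ppy together and that hormone made up at least 50% of them. Pyy was not used. Since insulin and glucagon genes were not analysed here, only these 2 classes could arise, and a cell left over is called Sst/Ppy-low. The cluster held 52 Sst-dominant cells (25 in WT 1 and 27 in WT 2), 26 Ppy-dominant cells (12 and 14) and 68 Sst/Ppy-low cells (19 and 49). Sst-dominant cells were thus 44.6% of the cluster in WT 1 and 30% in WT 2, while Sst/Ppy-low cells were 33.9% and 54.4%. These classes are ranges on a share and not cell types. The 10 cells just above the limit had Sst shares of 50 to 60%, and the 4 just below it 42.1 to 47.7%.

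Sst-dominant cells of WT 1 held 15 to 2142 Sst UMIs with a median of 748, and those of WT 2 held 6 to 2310 with a median of 640. Most of them carried Ppy as well, at a median of 193 UMIs in WT 1 (2 to 744) and 204 in WT 2 (0 to 539). At least 10 Ppy UMIs were counted in 44 of the 52 cells, and at least 10 Pyy UMIs in all 52. Over the 47 cells of the cluster that held at least 10 UMIs of both Sst and Ppy, the Sst share of the Sst and Ppy UMIs ran from 47.2 to 98.5% with a median of 72.6%. Outside the cluster, at least 10 Ppy UMIs were counted in 2 of 44 and 6 of 89 one-letter cells, at a median of 9853 and 8001 UMIs in all. In the other WT cells they were counted in 0 of 4227 and 4 of 6147, at 2499 and 2676 UMIs. Of the one-letter cells so counted, 7 were Sst-dominant and 1 Ppy-dominant by the same rule. The authors formed the clusters from these same genes, so the counts are no independent background. Sst/Ppy-low cells held 0 to 6 Ppy UMIs, a range that the class rule fixes. Sst-dominant cells had a median of 6332 and 5695 UMIs in all, Sst/Ppy-low cells 5060 and 4363.

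Ppy-dominant cells also covered a wide range. Their Ppy counts ran from 10 to 2287 UMIs with a median of 57 in WT 1 and from 11 to 4775 with a median of 200.5 in WT 2. Their median total was 5774 and 2722 UMIs. Sst was at 0 UMIs in 19 of the 26 cells and reached at least 10 UMIs in 3, all of WT 2. Ttr made up at least 1% of the UMIs in 13 of the 26, as it did in 62 of the 68 Sst/Ppy-low cells and in 10 of the 52 Sst-dominant cells. Among these 10 were the shallowest Sst-dominant cells of each mouse. They had 283 UMIs in all in WT 1 and 695 in WT 2, of which 3 and 23 were Ttr, so this limit can be passed on few UMIs. Pyy followed neither class alone. It stood at 40688 and 43956 CPM in Sst-dominant cells, 33187 and 81245 CPM in Ppy-dominant cells and 12667 and 12021 CPM in Sst/Ppy-low cells, of which 47 of 68 held at least 10 Pyy UMIs.

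**Figure D2:**
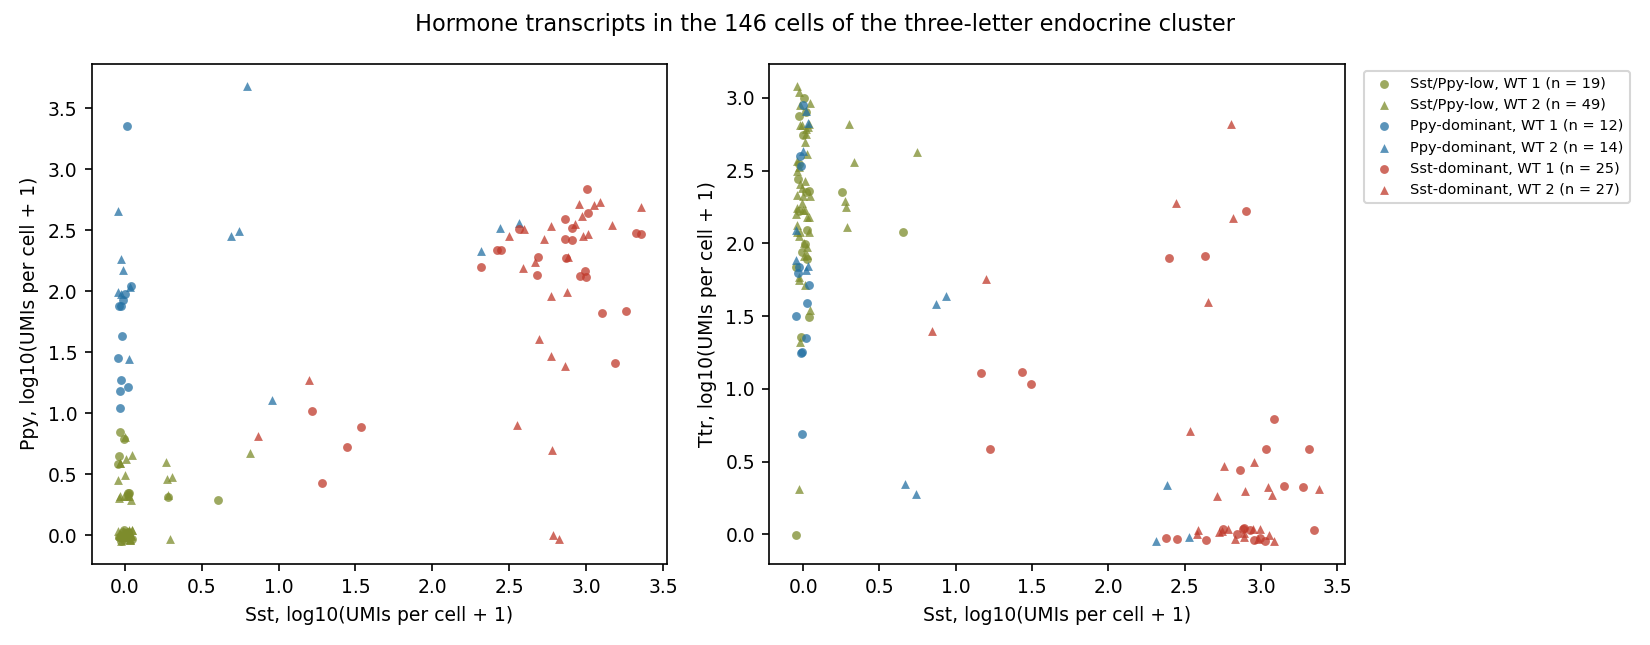
UMIs of Ppy (left) and Ttr (right) against UMIs of Sst in each of the 146 cells, as log10(UMIs + 1) with a small jitter; colours are the classes, circles WT 1 and triangles WT 2. Most Sst-dominant cells lie high on both hormone axes at the left, where 44 of 52 hold at least 10 Ppy UMIs, whereas the Sst/Ppy-low cells gather at low Sst and high Ttr.

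Sst/Ppy-low cells carried the alpha cell genes that could be measured. Ttr stood at 46311 and 69262 CPM in them, at 22272 and 41543 CPM in Ppy-dominant cells and at 2302 and 5399 CPM in Sst-dominant cells. Irx1, a homeobox gene of alpha cells, was at 71.7 and 56.9 CPM in Sst/Ppy-low cells and 12.4 and 5.17 CPM in Sst-dominant cells, near the level of a few UMIs. In both mice these 2 genes were lower in Sst-dominant than in Sst/Ppy-low cells. Of 12 alpha cell genes with at least 20 UMIs in the cluster, 7 were highest in Sst/Ppy-low cells in both mice (Ttr, Irx1, Slc7a2, Gc, Pcsk2 and Sphkap among them), and 1 (Irx2) was highest in Ppy-dominant cells. Over all 5453 genes 18.3% were highest in Sst/Ppy-low cells and 8.18% in Ppy-dominant cells in both mice. Slc30a8, the zinc transporter of insulin and glucagon granules, was at 1004 and 993 CPM in Sst/Ppy-low cells, 941 and 346 CPM in Ppy-dominant cells and 136 and 129 CPM in Sst-dominant cells.

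Delta cell genes beyond Sst were highest in Sst-dominant cells. In both mice 8 of 10 measured members (Hhex, Rbp4, Cd24a, Arg1, Neurog3, Pdx1, Frzb and Mest) had their highest level there, beside 12.3% of all genes. Hhex, a transcription factor needed for delta cells, was at 130 and 290 CPM. It had no UMI in any of the 68 Sst/Ppy-low cells, which allows up to 26.9 and 13.1 CPM. Neurog3, which directs endocrine differentiation, was at 68.1 and 67.2 CPM in Sst-dominant cells and likewise without a UMI in Sst/Ppy-low cells. Cd24a, a surface glycoprotein, was at 656 and 698 CPM, against 128 and 91.1 CPM in Ppy-dominant and 35.9 and 13.1 CPM in Sst/Ppy-low cells. Rbp4 was at 8305 and 6562 CPM, against 1649 and 2461 CPM and 2134 and 2279 CPM. The 2 mice thus gave the same order of Sst-dominant over the other classes for each of these genes.

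Of the PP cell list, with Ppy itself left out, none of 7 measured genes was highest in Ppy-dominant cells in both mice, beside 8.18% of all genes. At so low a share over all genes, this count says little about the list. Highest in Sst-dominant cells in both mice were 3 of the 7, beside 12.3% of all genes. Tspan8, a tetraspanin and 1 of these 3, was at 712 and 346 CPM in Sst-dominant cells, 267 and 346 CPM in Ppy-dominant cells and 80.7 and 35 CPM in Sst/Ppy-low cells. Its place in the count rests on a near tie in WT 2. With Sst and Ppy left out of the totals it was at 398 CPM in Sst-dominant and 407 CPM in Ppy-dominant cells of that mouse. Sfrp5, a secreted Wnt antagonist, was at 197 and 273 CPM in Ppy-dominant cells and 68.1 and 134 CPM in Sst-dominant cells. With Sst/Ppy-low cells included, its highest class differed between the mice. Ghrl, the ghrelin gene of epsilon cells, had no UMI in the cluster. Iapp stood at 33243 and 35465 CPM in Sst-dominant cells, 19764 and 9187 CPM in Ppy-dominant cells and 592 and 3123 CPM in Sst/Ppy-low cells. The value of Ppy-dominant cells in WT 1 rests on 1 cell, which held 1676 of the 1702 Iapp UMIs (median 1 over 12 cells), and that of Sst/Ppy-low cells in WT 2 on 1 cell with 658 of 714 (median 1 over 49 cells). Pdx1, which beta and delta cells share, was at 149 and 109 CPM in Sst-dominant cells, below the 329 and 389 CPM of the one-letter cluster.

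**Figure D3:**
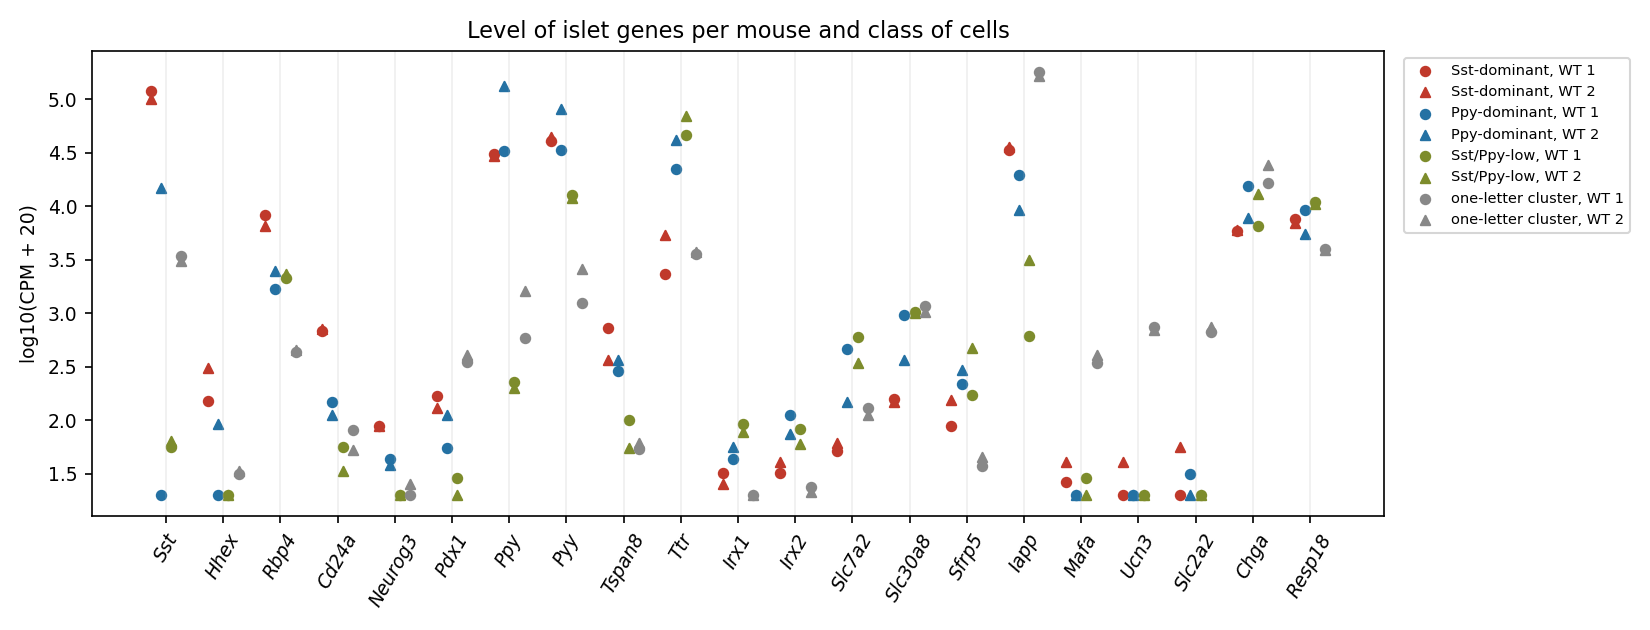
Level of 21 islet genes, as log10(CPM + 20), in the 3 classes of the three-letter cluster and in the one-letter cluster; circles are WT 1 and triangles WT 2. Hhex, Rbp4 and Cd24a are highest in the Sst-dominant class, Ttr in the Sst/Ppy-low class, and Iapp, Mafa, Ucn3 and Slc2a2 in the one-letter cluster.

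The Sst- and Ppy-dominant cells were tested against each other on the genes that the classes do not use. UMIs were summed per mouse and class without Sst and Ppy, while Pyy was kept, and compared with the quasi-likelihood test of edgeR, two-sided, with the mouse as a block and Benjamini-Hochberg adjustment. Of 1916 genes tested, 2 (0.104%) were lower in Sst-dominant cells and 0 higher at an adjusted p of 0.05. At an unadjusted p under 0.05, 98 were higher and 103 lower. The counts depended on the fit. DESeq2 called 4 genes, 2 in each direction, and kept both. Without the block none was called, without TMM 39 were higher and 16 lower, with both kept, and at a dominant share of 80% 33 were higher and 33 lower among 870 genes, with 1 of the 2 kept.

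Ttr was at 2712 CPM in Sst-dominant and 23031 CPM in Ppy-dominant cells of WT 1, and at 6207 and 48829 CPM in WT 2, with Sst and Ppy left out of the totals. Both mice were lower in Sst-dominant cells, with a log2 difference of -3.07 in the fit (SE 0.28, edgeR adjusted p = 0.0436). A few cells held most of the Ttr in Ppy-dominant cells, where 3 of 12 had 1613 of 1918 UMIs in WT 1 and 3 of 14 had 1841 of 2279 in WT 2. In Sst-dominant cells 3 cells had 318 of 372 and 910 of 1044. Per cell the medians were 44 and 57 UMIs in Ppy-dominant cells and 1 in Sst-dominant cells of each mouse. Its call was lost in 5 of 11 alternative fits: when the 3 Ppy-dominant cells with at least 10 Sst UMIs were left out (adjusted p = 0.121), without the block (0.122), at a dominant share of 80% (0.0609), with cells of at least 500 genes (0.0575) and with i4F 3 added (0.0606).

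None of the 8 delta cell genes tested passed the threshold, beside 2 of all 1916 genes (0.104%). All 8 fitted differences were above 0 and 7 were higher in Sst-dominant cells of both mice, beside 981 and 592 of all 1916 genes, with a median log2 difference of 1.99 beside 0.01 over all genes. Cd24a, at a log2 difference of 2.65 (SE 0.29), had an edgeR adjusted p of 0.0687. Hhex gave 2.73 (SE 0.73, adjusted p = 0.33) and Rbp4 1.91 (SE 0.34, adjusted p = 0.216). Several fits called such genes: Cd24a and Rbp4 were higher at a dominant share of 80% (adjusted p = 6.69e-06 and 6.87e-05), and so were Cd24a, Rbp4 and Hhex with i4F 3 added (9.73e-05, 0.000728 and 0.026) and without TMM or without a filter, where the median of all genes also moved up. DESeq2 called Rbp4 (adjusted p = 0.0376). Of 7 alpha cell genes 1, Ttr, passed as lower, and 6 had lower values in both mice, beside 484 of all 1916 genes. Slc30a8, of the beta cell list, at -2.12 (SE 0.34), had an adjusted p of 0.216 (0.00582 at a share of 80% and 0.00351 with i4F 3 added). Of 14 shared endocrine genes, 9 exocytosis genes, 13 ER stress genes and 14 immediate early and heat shock genes, none passed. With 0.104% of all genes called, the absence of calls says little about these lists. With the 12 cells removed that held at least 1% of UMIs in another cell type's list, 19 genes were higher and 33 lower. Ttr (adjusted p = 0.00325) and Slc30a8 (0.0053) were then lower and Cd24a (0.0053) and Rbp4 (0.00325) higher. Among the cells removed were 5 Sst-dominant and 2 Ppy-dominant ones.

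In the endocrine clusters of the other mice, which the authors formed apart for each condition and named with 4 letters, the same classes were counted. Sst-dominant cells numbered 1, 1 and 16 in the 3 i4F mice and 1 and 4 in the 2 caerulein mice. At least 10 Ppy UMIs were found in 20 of these 23 cells, and in 7 of the 8 Sst-dominant cells of the WT one-letter cluster. Ppy-dominant cells numbered 6, 9 and 12 in i4F mice and 5 and 9 in caerulein mice. Only i4F 3 had at least 5 cells of both classes. There, Ttr was at 6476 and 6275 CPM, so that its log2 difference was 0.05. The sign in i4F 3 was that of the WT fit for 7 of 8 delta cell genes and 4 of 7 alpha cell genes, beside 1071 of all 1916 genes (55.9%). Log2 differences were 1.82 for Cd24a, 1.76 for Rbp4, 1.5 for Hhex and -1.28 for Slc30a8, from 4 to 263 UMIs per class, but -0.71 for Etv1, the delta cell gene with the opposite sign. Iapp, at 0.94 and 1.91 in the WT mice, was at -0.02. Of the 2 genes called in WT mice 1 had the same direction in i4F 3.

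Cells rich in islet hormones were also counted without regard to clusters, as cells in which Sst and Ppy held at least 10% of the UMIs. WT 1 had 19 such cells, or 0.439% of its cells (exact 95% interval 0.265 to 0.685%), and WT 2 had 26, or 0.411% (0.269 to 0.602%). The i4F mice had 0 of 9811, 0 of 8218 and 15 of 7614, the last being 0.197%, and counts of 0, taken as 3 counts at most, allow shares of up to 0.0306% and 0.0365% (exact 95% upper limits 0.0376% and 0.0449%). Caerulein mice had 1 of 15138 and 7 of 7039 cells, or 0.00661% and 0.0994%. All of these cells lay in endocrine clusters. Both WT mice were above every other mouse, with a mean of 0.425% ± 0.0199 (SD, n = 2) against 0.0657% ± 0.114 (SD, n = 3) in i4F mice and 0.0530% ± 0.0656 (SD, n = 2) in caerulein mice. The differences of -0.359 and -0.372 percentage points gave exact two-sided permutation p-values of 0.2 and 0.3333, which are the smallest that these numbers of mice allow.

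The endocrine clusters as a whole made up 2.31% and 2.83% of WT cells, 0.387%, 0.402% and 1.25% of i4F cells and 0.377% and 0.952% of caerulein cells. Their cells were also deeper in WT mice, with a median of 7706.5 and 6049 UMIs against 2928 to 3393 in i4F mice and 2671 and 1187 in caerulein mice. The part of this depth in the counts above was not tested. These shares are also of all captured cells of a mouse, and the paper reports abundant infiltrating immune cells in i4F pancreata. What the mix of cells adds to the lower shares was not tested either.

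**Figure D4:**
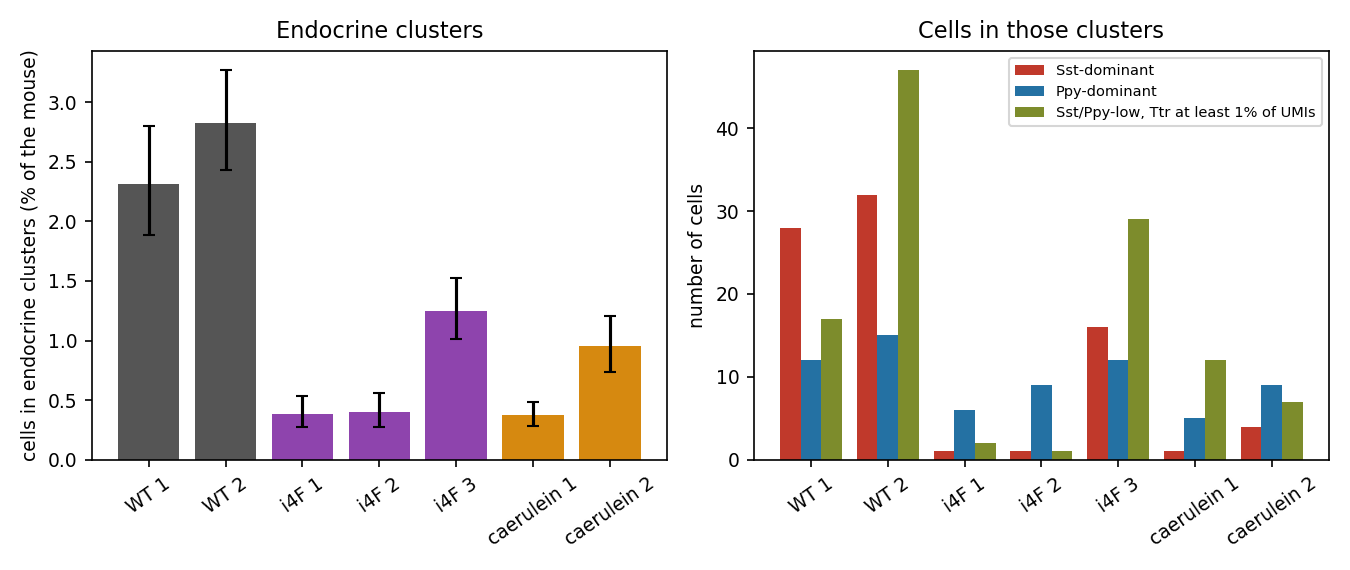
Left, percent of each mouse's cells in endocrine clusters, with exact 95% intervals that cover counting error only; right, numbers of Sst-dominant, Ppy-dominant and Ttr-rich Sst/Ppy-low cells in those clusters, with both WT endocrine clusters added up. Sst-dominant cells number 28 and 32 in the WT mice and 16 in i4F 3, against 1 to 4 in each of the other mice.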

How the data were processed

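Pancreata of 7 mice were measured with the 10x Genomics 3′ v3 assay. According to the methods and the processing notes, the authors aligned reads to GRCm38 (mm10) with Cell Ranger, corrected ambient RNA with SoupX, kept cells with at least 150 genes and at most 5% of UMIs from mitochondrial genes, and clustered each condition in Seurat with 20 principal components and a resolution of 0.2. The deposited tables hold whole-number UMI counts per gene and cell. Whether they precede or follow SoupX is not given in the sources used here. The percent of mitochondrial UMIs per cell and the cluster names were deposited by the authors.

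From these counts, UMIs were summed per mouse and cell class and scaled to CPM. Classes were tested with edgeR 4.0.16 (TMM, filterByExpr, mouse as a block, adjusted p threshold 0.05), with DESeq2 1.42.0 as an alternative. SEs were derived from the F statistic. Both classes come from the same mice, and their deviations from the class means correlated with r = 0.309 over 1916 genes. Data were also simulated for Sst- against Ppy-dominant cells over 1916 genes, 200 of them changed. The test recovered 85.0% of changes of 2 and 100% of changes of 3 on the log2 scale, with 8 false calls. The simulation held no differences between mice and changed far more genes than were called in the data. Its shares therefore do not give the power in the data, where Hhex, with a fitted log2 difference of 2.73, was not called. Scrublet, run from scanpy 1.11.5, called doublets. Mice were the replicates, so p-values with 2 mice rest on 1 residual degree of freedom shared in part across genes.

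Named genes are those of 25 lists (islet cell types, other pancreatic cell types, granule, exocytosis, channel, receptor, cilia, cell cycle and stress genes), and the 10 largest folds past the limits in both mice, in each direction. The members and lists were chosen with earlier results of these data known. Some genes of these lists and sets are counted but not reported here by name. No further columns of per-sample values were present beyond those used.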

Additional observations from a re-analysis of the deposited data

How the results depend on the processing

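Leaving out a WT mouse gave 25 to 27 Sst-dominant, 12 to 14 Ppy-dominant and 19 to 49 Sst/Ppy-low cells, 42 to 52 genes higher and 50 to 57 lower than in the one-letter cluster, in which a fold in 1 mouse is enough. Adding 5 instead of 20 CPM gave 74 and 89 genes. A dominant share of 80% left 21 Sst-dominant cells and 103 of neither class, and cells with at least 500 genes raised the cluster's mean share from 1.36 to 1.82%. Between Sst- and Ppy-dominant cells, genes higher and lower numbered 0 and 0 without the replicate block, 2 and 2 with DESeq2, 39 and 16 without TMM, 43 and 18 without a filter (14697 genes tested), 33 and 33 at a share of 80%, and 0 and 1 with at least 500 genes per cell. Chosen after seeing the data were the fit with i4F 3 added (16 and 5), that without Ppy-dominant cells holding Sst (0 and 0), that without cells rich in another cell type's genes (19 and 33), and leaving out a mouse for the shares and classes. The cause was not tested. Without TMM the median log2 difference over all genes was 0.12, and without a filter 0.47, instead of 0.01. Ttr kept its direction throughout (log2 -2.08 to -3.41) but lost its call in 5 of 11 alternative fits. Pyy, with no call, ranged from -0.92 to 0.48 with each mouse left out, and turned positive without WT replicate 2. The hormone-rich shares stayed higher in WT mice under every alternative, with differences of -0.498 to -0.104 points in i4F mice and -0.571 to -0.0889 points in caerulein mice, and of -0.425 and -0.372 points with the replicate number as a block, which these mice only share by name. The planned fit on hormone-rich cells of all mice was not run, since only WT 2 had 5 cells of each class. With 2 mice, genes under 1 UMI per cell, such as Irx1, are limited by depth.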

Other observations

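Other genes than Pcsk1n also differed between the WT mice in both endocrine clusters. Scand1, a SCAN domain protein, had no UMI in WT 1 and 141 CPM in WT 2 in the three-letter cluster, and 1.90 and 178 CPM in the one-letter cluster. Chchd10, a mitochondrial protein, was at 8.35 and 229 CPM and at 20.9 and 408 CPM. Both genes also differed in the other WT cells, with 0.439 and 129 CPM for Scand1 and 14.7 and 153 CPM for Chchd10. In the endocrine clusters of the other mice Pcsk1n ranged from 603 to 3324 CPM, above both values of WT 1 in all 5 mice. These 3 genes were named after their values were seen.

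Immediate early and heat shock genes, which respond to tissue dissociation, summed to 12999 and 15297 CPM over 16 genes in the three-letter cluster, to 8053 and 6182 CPM in the one-letter cluster and to 25724 and 33271 CPM in the other WT cells. Of these 16 genes 1, Hspa1a, was at least 4-fold higher than in the one-letter cluster in both mice, beside 0.29% of all genes. The 15 ER stress genes summed to 6789 and 5356 CPM, against 12267 and 11677 CPM in the one-letter cluster, with none past the 4-fold limit.

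Of 10 measured ion channel genes 2, the sodium channel genes Scn3a and Scn9a, were highest in Sst-dominant cells in both mice, beside 12.3% of all genes, and for the other 8 the highest class differed between the mice. Scn9a was at 161 and 134 CPM in Sst-dominant, 81.3 and 91.1 CPM in Ppy-dominant and 44.8 and 30.6 CPM in Sst/Ppy-low cells. Scn3a was at 130, 46.4 and 62.8 CPM in WT 1, but at 62.1, 54.7 and 52.5 CPM in WT 2, from few UMIs. Sstr2, a somatostatin receptor, was at 24.8 and 20.7 CPM in Sst-dominant cells, 69.7 and 0 CPM in Ppy-dominant cells and 117 and 65.6 CPM in Sst/Ppy-low cells, and had no UMI in the one-letter cluster. The counts behind the receptors are small, and no receptor was abundant enough to enter the test between classes.

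The 12 cell cycle genes summed to 58.5 and 62.9 CPM in the three-letter cluster, against 220 and 120 CPM in the other WT cells. The 9 Schwann cell and neuron genes with a row summed to 273 and 220 CPM, and the 6 cilia genes to 175 and 258 CPM, beside 165 and 162 CPM and 237 and 267 CPM in the one-letter cluster.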
